A study of Homo sapiens with 6 samples.

Results

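The genes of the core and catalytic subunits of the SWI/SNF chromatin remodelling complex were examined for accessible chromatin. They are a list of 10 genes out of 19974 protein-coding genes, chosen by name and not by their values: SMARCA4, SMARCA2, SMARCB1, SMARCC1, SMARCC2, SMARCD1, SMARCD2, SMARCD3, SMARCE1 and ACTL6A. Every listed ATAC-seq peak in the body of these genes or within 10 kb of it was taken, at the RefSeq GRCh38 coordinates, and was placed at a gene end when it reached within 1000 bp of either end of the gene. ATAC-seq marks open DNA by the insertion of sequencing adapters by the Tn5 transposase. All libraries came from Huh7, an established human hepatocellular carcinoma line, in which ARID1A had been knocked out, so no group keeps the unedited endogenous gene. The WT group carried Flag-tagged wild-type ARID1A, stably expressed from a lentivirus, and the V2084D group carried the missense form V2084D from the same kind of vector. The V2084D shSTUB1 group carried V2084D together with a knockdown of the ubiquitin ligase STUB1. Each of the 3 groups had 2 libraries. The labels do not say whether the knockout line is 1 clone, whether replicates are separate cultures or whether V2084D cells carry a control hairpin. A p-value therefore reflects the variation among these libraries, which may be technical.

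The lists differed in length, from 7401 summits in WT replicate 2 to 30768 in V2084D replicate 2, and relative sequencing depth recovered from the deposited values ran from 1 to 1.70 in the same 2 libraries. V2084D replicate 1 was short (9231 summits, depth 1.17), so the V2084D group holds a short and the longest list. The median summit held 8 to 12 reads, depending on the library, so a gene without a listed peak had none called at this depth and is not shown to be closed. A peak also cannot tell a site that is open in fewer cells from a site that is less open in every cell. Of 12 hepatocyte and hepatoma marker genes, 1 to 4 per library had a gene-end peak, and 8, ALB, AFP and HNF4A among them, had none in any library. Gene-end peaks were listed for 1 of 5 leukocyte, 1 of 3 endothelial, 1 of 3 fibroblast and stellate (COL1A1, in all 6 libraries) and 1 of 3 neuronal markers (SYT1, in all 6).

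SWI/SNF complexes use the energy of ATP to slide or evict nucleosomes and so open DNA to transcription factors. The motor is either SMARCA4 or SMARCA2, paralogous ATPases of which each complex holds a single copy. SMARCC1 and SMARCC2 form the scaffold on which the complex is built, SMARCB1 contacts the nucleosome, the SMARCD paralogs and SMARCE1 complete the core, and ACTL6A is an actin-related protein that binds the ATPase. ARID1A joins this core in one class of complex and links it to DNA. Loss of SMARCA4, SMARCB1 or ARID1A is a recurrent event in human cancers.

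The stretch of 250 bases before the outermost annotated start of 6 of these genes is given here, because their gene-end peaks came and went between libraries and because the ATPase pair and the SMARCD family can be compared. Sequences are from RefSeq, 5′ to 3′ toward the start site, and capitals mark matches on either strand to the motifs searched.
SMARCA4 (GRCh38.p14, chr19:10960780-10961029, plus strand): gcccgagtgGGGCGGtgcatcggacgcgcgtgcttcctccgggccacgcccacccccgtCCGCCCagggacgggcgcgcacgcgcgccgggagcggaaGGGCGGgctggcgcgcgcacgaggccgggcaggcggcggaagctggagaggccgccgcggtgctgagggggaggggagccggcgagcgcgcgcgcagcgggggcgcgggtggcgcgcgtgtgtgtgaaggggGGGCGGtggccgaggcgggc
SMARCA2 (GRCh38.p14, chr9:2015097-2015346, plus strand): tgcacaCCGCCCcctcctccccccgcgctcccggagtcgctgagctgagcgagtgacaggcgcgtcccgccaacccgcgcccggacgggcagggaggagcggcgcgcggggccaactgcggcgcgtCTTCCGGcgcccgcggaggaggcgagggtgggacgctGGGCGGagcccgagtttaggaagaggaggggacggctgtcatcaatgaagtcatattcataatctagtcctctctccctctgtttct
SMARCB1 (GRCh38.p14, chr22:23786716-23786965, plus strand): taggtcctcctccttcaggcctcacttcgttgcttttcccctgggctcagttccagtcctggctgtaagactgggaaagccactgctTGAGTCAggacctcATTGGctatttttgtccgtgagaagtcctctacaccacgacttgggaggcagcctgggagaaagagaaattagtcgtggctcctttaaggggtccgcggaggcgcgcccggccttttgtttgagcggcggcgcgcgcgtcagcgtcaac
SMARCD1 (GRCh38.p14, chr12:50085092-50085341, plus strand): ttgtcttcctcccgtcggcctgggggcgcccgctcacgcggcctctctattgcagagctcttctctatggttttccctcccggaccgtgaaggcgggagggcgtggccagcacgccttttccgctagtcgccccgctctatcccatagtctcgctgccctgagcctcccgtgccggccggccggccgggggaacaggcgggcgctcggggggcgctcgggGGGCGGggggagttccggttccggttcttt
SMARCD2 (GRCh38.p14, chr17:63842686-63842935, minus strand): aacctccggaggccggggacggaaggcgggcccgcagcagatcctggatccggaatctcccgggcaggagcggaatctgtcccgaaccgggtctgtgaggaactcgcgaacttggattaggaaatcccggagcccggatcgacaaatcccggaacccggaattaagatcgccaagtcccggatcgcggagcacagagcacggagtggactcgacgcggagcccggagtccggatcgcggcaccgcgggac
SMARCD3 (GRCh38.p14, chr7:151277150-151277399, minus strand): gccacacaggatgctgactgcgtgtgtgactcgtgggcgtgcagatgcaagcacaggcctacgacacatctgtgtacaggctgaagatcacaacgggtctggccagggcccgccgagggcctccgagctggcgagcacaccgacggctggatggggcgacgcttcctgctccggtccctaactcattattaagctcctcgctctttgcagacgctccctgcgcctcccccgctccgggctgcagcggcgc

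The promoter table matched 7 of the 10 genes, the 6 above and SMARCE1, with SMARCC1, SMARCC2 and ACTL6A without an entry. The 9 motifs searched were GGGCGG (GC box), CCAAT (NFY box), CCGGAAG (ETS), GCATGC (NRF1 core), TGACGT (part of a CRE), TGACTCA (AP-1), CACGTG (E-box), ATGGCGG (YY1) and TATAAA (bound by TBP). A GC box was found in 4 of the 7 outer windows, with 4 matches at SMARCA4, 2 at SMARCA2 and 1 each at SMARCD1 and SMARCE1, and in 53.7% of the 22132 windows of protein-coding genes. SMARCA2 also held an ETS match (10.7% of all windows), SMARCB1 an NFY box (32.7%) and an AP-1 match (3.45%), and SMARCE1 an NFY box. SMARCD2 and SMARCD3 held none of the 9. GC content ran from 54.4% at SMARCE1 to 82.4% at SMARCA4, against a median of 62% over all windows, and was above that median in 5 of the 7. The ratio of observed to expected CpG was above the median of all windows (0.711) in all 7, from 0.761 at SMARCB1 to 1.16 at SMARCD2. From the most to the least GC-rich window, SMARCA4 (82.4%) had a gene-end peak in 1 library, SMARCD1 (70.4%) in 3 and SMARCA2 (68.8%) in 4. SMARCD2 (65.6%) had one in 4, SMARCD3 (65.2%) in 1, SMARCB1 (58%) in 4 and SMARCE1 (54.4%) in 1. A relation between GC content and peaks was not tested.

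Every one of the 10 genes had a gene-end peak in at least 1 library, where 58.2% of protein-coding genes did. The number of subunit genes with such a peak was 4 of 10 in WT replicate 1, 4 in WT replicate 2, 3 in V2084D replicate 1, 9 in V2084D replicate 2, 8 in V2084D shSTUB1 replicate 1 and 4 in V2084D shSTUB1 replicate 2. The corresponding shares of all protein-coding genes were 32.3%, 24.2%, 31.1%, 54.7%, 48.1% and 40.6%. The counts were high in the longest 2 lists and close to the share of all genes in V2084D replicate 1 and V2084D shSTUB1 replicate 2. In all there were 66 peaks in 22 separate regions, 36 of them at gene ends and 30 elsewhere, with 5 to 28 reads at the summit (median 10). Most of the regions were not shared by every library: 8 of the 22 had a peak in 1 library alone and 2 had a peak in all 6.

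**Figure D1:**
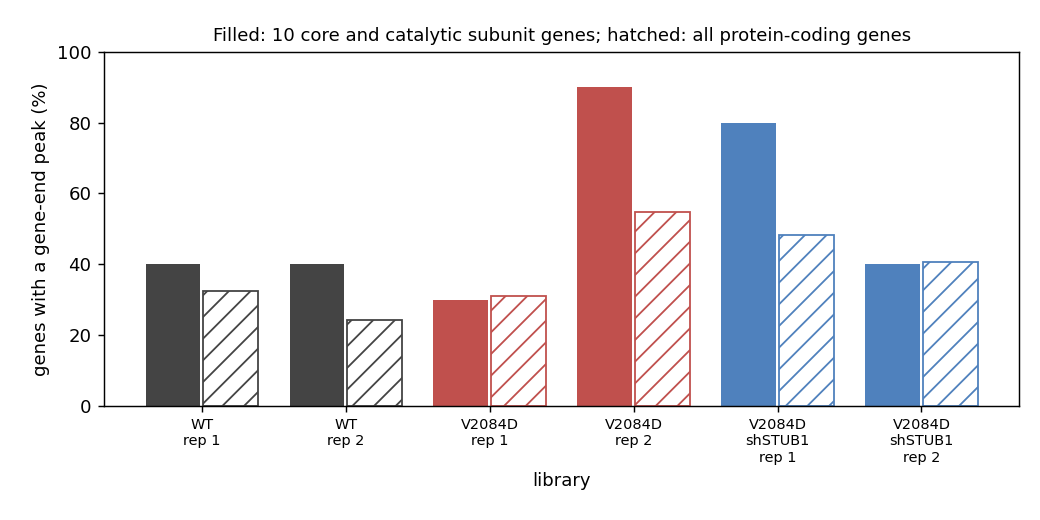
Percent of genes (vertical axis) with a peak within 1000 bp of either gene end in each library (horizontal axis), filled bars for the 10 subunit genes and hatched bars for all protein-coding genes, with colour by group. The filled bars stand at 90% and 80% in V2084D replicate 2 and V2084D shSTUB1 replicate 1, and at 30% to 40% in the other 4 libraries.

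ACTL6A was the gene with a gene-end peak in all 6 libraries, a pattern shared by 15.8% of protein-coding genes, and SMARCC1 had 5. SMARCA2, SMARCB1 and SMARCD2 had 4, SMARCC2 and SMARCD1 had 3, and SMARCA4, SMARCD3 and SMARCE1 had 1 (a single library in 7.29% of protein-coding genes). The exact pattern over the 6 libraries was shared with 3.06% of protein-coding genes for SMARCD2, 2.87% for SMARCC1, 2.75% for SMARCB1, 1.48% for SMARCD3, 1.17% for SMARCC2 and 0.461% for SMARCD1. The median was 3.5 libraries for the 10 genes and 2 for all protein-coding genes. Folds given here are the authors' own values for each peak, relative to the local background of the same library, and are not compared between lists of different length.

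**Figure D2:**
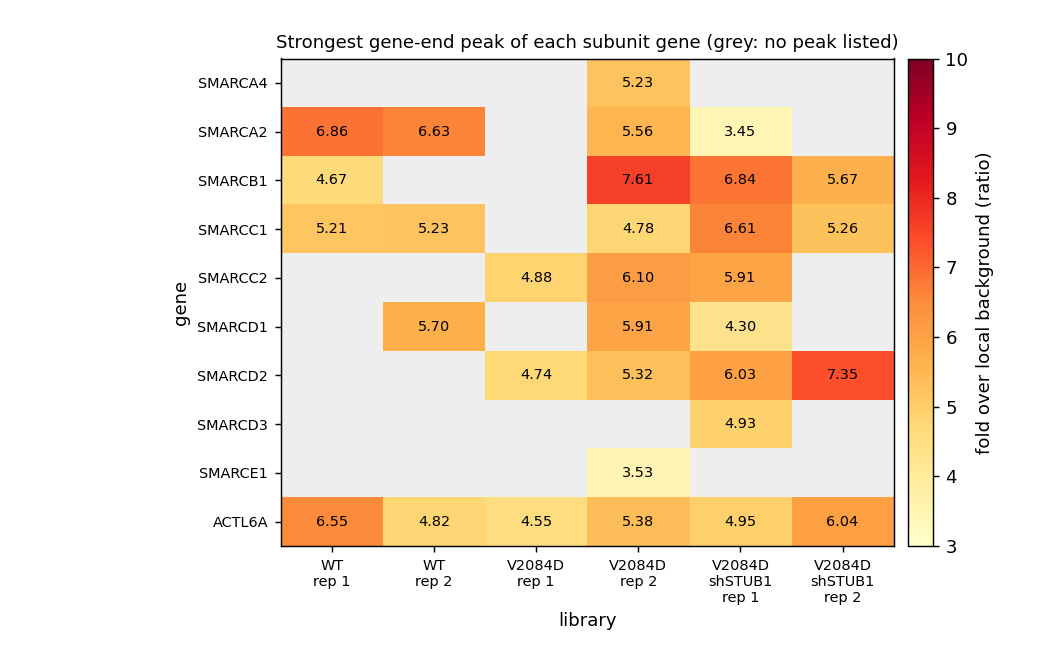
Deposited fold over local background (colour and number, a ratio) at the gene ends of each subunit gene (rows, strongest peak) in each library (columns), with grey where no peak was listed. Only the ACTL6A row is filled in all 6 columns, and V2084D replicate 1 holds 3 of the 10 peaks against 9 in V2084D replicate 2.

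Among the ATPases, SMARCA2 (chromosome 9, 2015347 to 2193620) carried a start-site peak in both WT libraries and SMARCA4 (chromosome 19, 10961030 to 11062273) in neither. At SMARCA2 the fold was 6.86 in WT replicate 1 (13 reads at the summit), 6.63 in WT replicate 2 (10 reads), 5.56 in V2084D replicate 2 (18 reads) and 3.45 in V2084D shSTUB1 replicate 1 (9 reads). V2084D replicate 1 and V2084D shSTUB1 replicate 2 had no peak there, so both the V2084D and the shSTUB1 group were split. The summits of the 4 libraries lay at -60 to -235 bp from the start, and peaks covered all 250 bases of the window printed above in 3 libraries and 229 in V2084D shSTUB1 replicate 1. The ETS match and 1 of the GC boxes lay inside all 4 peaks. Within its own list, the SMARCA2 peak stood at percentiles 83.3 and 75.9 of −log10 q in WT. It stood at percentile 69.6 in V2084D replicate 2 and 6.49 in V2084D shSTUB1 replicate 1. The same pattern over the 6 libraries was found for 84 protein-coding genes (0.421%). None of the 3 further RefSeq starts inside SMARCA2 had a peak within 1000 bp in any library.

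SMARCA4 had a gene-end peak in V2084D replicate 2 alone, from 10960368 to 10960769, with a fold of 5.23 and 8 reads. Its summit lay 556 bp upstream of the start, and it ended short of the GC-rich window, of which it covered 0 bases. That pattern, V2084D replicate 2 alone, was shared by 4.83% of protein-coding genes. Inside the gene, with its nearest summit 26189 bp from the higher end, a region had a peak in V2084D replicate 2 (fold 4.32, 6 reads) and V2084D shSTUB1 replicate 1 (7.64, 10 reads), the pair of longest lists. The inner start of SMARCA4 had no peak in any library.

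The scaffold gene SMARCC1 (chromosome 3, 47585269 to 47781893) had a peak across its higher-coordinate end in every library but V2084D replicate 1. WT had folds of 5.21 and 5.23, V2084D replicate 2 had 4.78, and the knockdown libraries had 6.61 and 5.26, on 8 to 15 reads. The summits were tightly placed, within 137 bp of each other and 5 to 142 bp outside the gene. Its paralog SMARCC2 (chromosome 12, 56162359 to 56189483) showed another pattern, with a higher-end peak in both V2084D libraries (folds 4.88 and 6.10, 7 and 14 reads), in V2084D shSTUB1 replicate 1 (5.91, 12 reads) and in neither WT library. These are the strongest per library. V2084D replicate 2 had another gene-end peak inside the gene (fold 4.47), and V2084D shSTUB1 replicate 1 another outside it (fold 5). The strongest V2084D peaks overlapped by 363 bp, with summits 667 and 324 bp beyond the gene. Both have the ends of a tRNA gene (TRS-CGA4-1) and of LOC107984468 within 1000 bp. No other protein-coding gene has an end there.

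SMARCB1 (chromosome 22, 23786966 to 23838009) had start-site peaks in 4 libraries, with folds of 4.67 in WT replicate 1 (6 reads), 7.61 in V2084D replicate 2 (13 reads), and 6.84 and 5.67 under STUB1 knockdown (12 and 10 reads). The peaks were not at the same place. The WT summit lay 17 bp upstream of the start and the others 276 to 458 bp downstream of it. The WT peak overlapped that of V2084D shSTUB1 replicate 1 by 11 bp and ended 90 bp short of the V2084D replicate 2 peak and 30 bp short of the V2084D shSTUB1 replicate 2 peak. The WT peak covered 160 bases of the printed window, with the NFY match inside it and its edge within the AP-1 match, and the other 3 covered 0. With 1 WT library showing a peak, this displacement has no replicate check. At the other end of SMARCB1, shared with DERL3, a region had a peak in WT replicate 2, V2084D replicate 2 and both V2084D shSTUB1 libraries. It lies on the limit of the 1000 bp window: the peak of V2084D shSTUB1 replicate 1, with its summit 1043 bp beyond the gene, reached into the window and that of V2084D shSTUB1 replicate 2, at 1128 bp, did not.

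The SMARCD paralogs, of which a complex holds a single one, differed from each other. SMARCD2 (chromosome 17, 63832081 to 63842685) had a start-site peak in all 4 V2084D-carrying libraries, and in neither WT library. The V2084D folds were 4.74 and 5.32 (8 and 14 reads), and those under STUB1 knockdown 6.03 and 7.35 (13 and 14 reads). All 4 peaks overlapped one another, by 246 to 473 bp, with summits 315 to 606 bp upstream of the start. They lay mostly beyond the printed window, of which they covered 0 bases in V2084D replicate 1, 250 in V2084D replicate 2, and 72 and 71 in V2084D shSTUB1. SMARCD1 (chromosome 12, 50085342 to 50100707) had a narrow peak at its start in WT replicate 2 (fold 5.70, 8 reads), V2084D replicate 2 (5.91, 10 reads) and V2084D shSTUB1 replicate 1 (4.30, 7 reads), that is, in 1 library of each group. Those peaks covered 110 to 200 bases of the printed window. SMARCD3 (chromosome 7, 151238780 to 151277149) had 1 gene-end peak, 200 bp wide, in V2084D shSTUB1 replicate 1 (fold 4.93, 6 reads, summit 162 bp upstream of the outermost start). Its inner start at 151248694, with a window of 76.0% GC, had no peak within 1000 bp in any library.

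SMARCE1 (chromosome 17, 40624962 to 40647818), which encodes the DNA-binding HMG-box subunit, had the gene-end peak with the lowest −log10 q, 1.56. The single peak, in V2084D replicate 2, had a fold of 3.53 on 5 reads and stood at percentile 4.50 of −log10 q in that list, with a summit 211 bp downstream of the start. No other peak was listed in the gene or within 10 kb of it.

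ACTL6A (chromosome 3, 179562926 to 179588407) had a peak at its lower-coordinate end in every library, with WT folds of 6.55 and 4.82 (10 and 7 reads), V2084D folds of 4.55 and 5.38 (6 and 9 reads) and knockdown folds of 4.95 and 6.04 (9 and 10 reads). Presence was therefore constant in the full lists while position was not. At equal list length ACTL6A had a gene-end peak in 3 libraries, neither of them V2084D without knockdown. With a −log10 q of at least 5 it had one in 2. Measured from the gene's end into the gene, the WT summits lay at -34 and -184 bp and the V2084D summits at 738 and 643 bp. The V2084D replicate 1 peak overlapped neither WT peak, at gaps of 301 and 608 bp, and that of V2084D replicate 2 overlapped WT replicate 1 by 115 bp and lay 192 bp from WT replicate 2. The V2084D shSTUB1 libraries differed, with the summit 5 bp outside the gene in replicate 2 and the strongest summit at 405 bp in replicate 1. The replicate 1 peak, of 1157 bp, overlapped the peaks of all 5 other libraries. ACTL6A was singled out after its values were seen. Of 3270 protein-coding genes with a gene-end peak in all 4 WT and V2084D libraries, 0.489% had summits at least 500 bp apart between the groups and closer within them, and ACTL6A was the only subunit gene with peaks in all 4. The same separation was met by 0 of 2 subunit genes between V2084D and V2084D shSTUB1 (0.566% of genes) and by 0 of 2 between WT and V2084D shSTUB1 (0.374%). For every gene the summit used was the strongest at either gene end. A gene whose strongest peak changed ends is therefore counted too, and these shares are no test of ACTL6A.

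**Figure D3:**
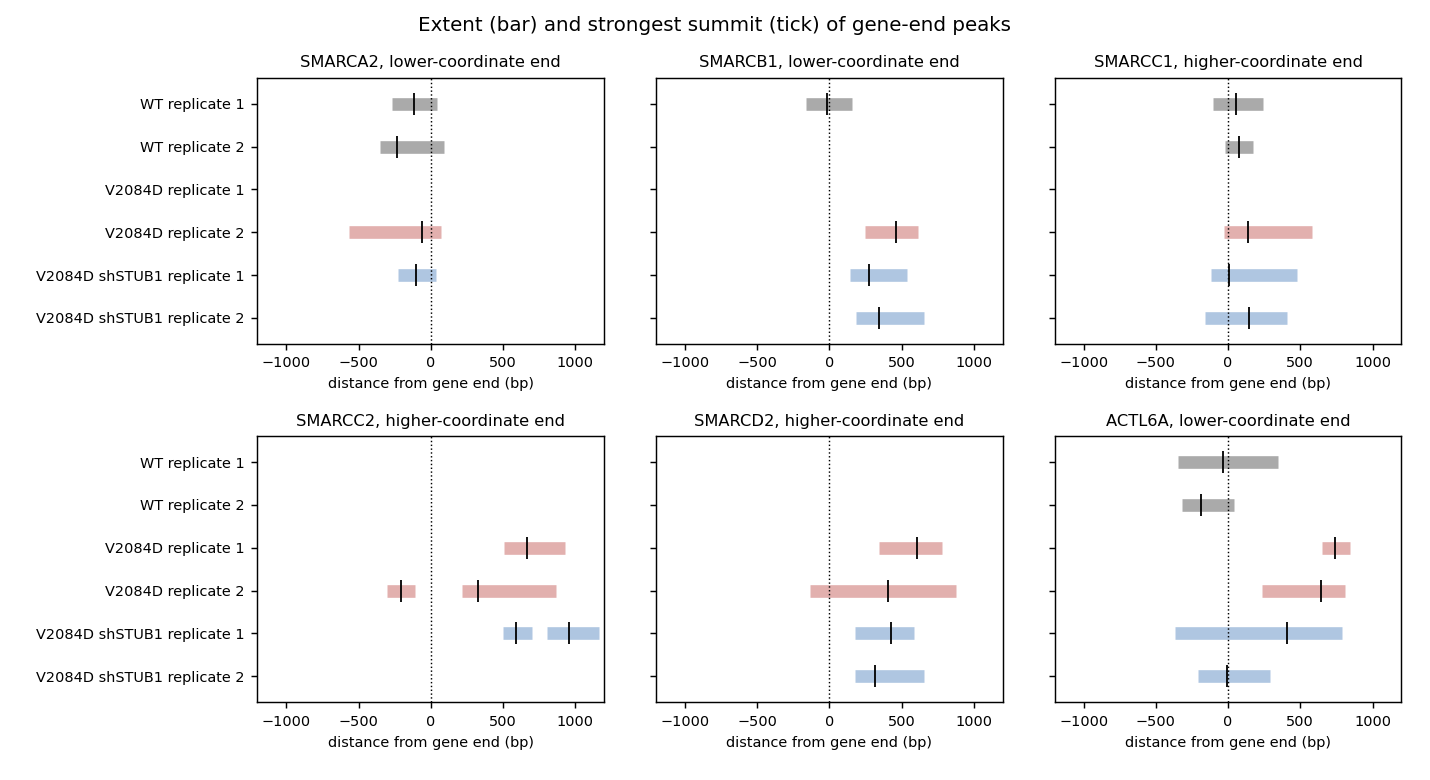
Extent (bars) and strongest summit (ticks) of gene-end peaks by library (rows), as distance in bp from the named gene end in the direction of the genome, for 6 subunit genes. At ACTL6A the WT summits sit at -34 and -184 bp and the V2084D summits at 738 and 643 bp, whereas the SMARCC1 summits of 5 libraries stand within 137 bp of each other.

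For the 7 genes whose start is annotated, 18 of 20 gene-end peaks were at the end with the start site, and the 2 others were the SMARCB1 peaks shared with DERL3. Of 8 further starts inside these genes, 6 had no peak within 1000 bp in any library, and the 2 with one, in SMARCD2 and SMARCD3, lie within 1000 bp of the outermost start.

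Away from the gene ends 10 regions were seen, of which 1 was shared by all libraries and 1 by all but WT replicate 1. Not among them are 2 SMARCB1 peaks counted as elsewhere, in WT replicate 2 (fold 8.11) and V2084D shSTUB1 replicate 2 (6.41). Both missed the 1000 bp window but belong to the region at the DERL3 end, which was counted at gene ends. The region with a peak in all 6 libraries lay beyond the lower end of SMARCD2, where the ends of FTSJ3 and of PSMC5, a proteasome ATPase gene, meet. The strongest summit of each of its peaks was at least 4394 bp from SMARCD2. The strongest peak of this region per library had folds of 9.35 and 6.32 (WT), 8.93 and 8.90 (V2084D) and 8.45 and 8.33 (V2084D shSTUB1), on 10 to 28 reads. This region belongs to FTSJ3 and PSMC5 by position and was taken in by the 10 kb flank. The SMARCC1 region with its nearest summit 7261 bp beyond the higher end, by contrast, has no annotated gene end within 1000 bp. It had a peak in 5 libraries, with folds of 7.23 (WT replicate 2), 7.95 and 8.04 (V2084D) and 7.01 and 7.56 (V2084D shSTUB1), on 11 to 17 reads, and with summits within 63 bp of each other. In these 5 libraries it ranked at percentile 80.4 to 94.3 of −log10 q, above the gene-end peak of SMARCC1 in the same list where there was one. V2084D replicate 1, which lacked the gene-end peak, had it.

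Another region inside SMARCC1, from 47703757 to 47704539, had a peak in V2084D replicates 1 and 2 (folds 6.08 and 5.17) and V2084D shSTUB1 replicate 1 (5), and in neither WT library, on 6 to 8 reads. The region with summits at least 6498 bp upstream of SMARCD2 had a peak in WT replicate 1, V2084D replicate 2 and V2084D shSTUB1 replicate 2, that is, in 1 library of each group. The region at the MYL6B and MYL6 ends, within the flank of SMARCC2, had a peak in 4 libraries, with folds of 4.20 to 5.03. The remaining regions away from gene ends, other than that inside SMARCA4, had a peak in a single library, at the flanks of SMARCC2, SMARCD1 and SMARCD3. That of SMARCC2 has ends of MYL6B and LOC124902942 within 1000 bp, and that of SMARCD3 an end of CHPF2. At SMARCD1 the region beyond the higher end has an end of GPD1 within 1000 bp, and the other has no other gene end there. Near the 10 kb limit, the outermost regions taken in had summits 9923 bp from SMARCC2 and 10000 bp from SMARCD1.

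**Figure D4:**
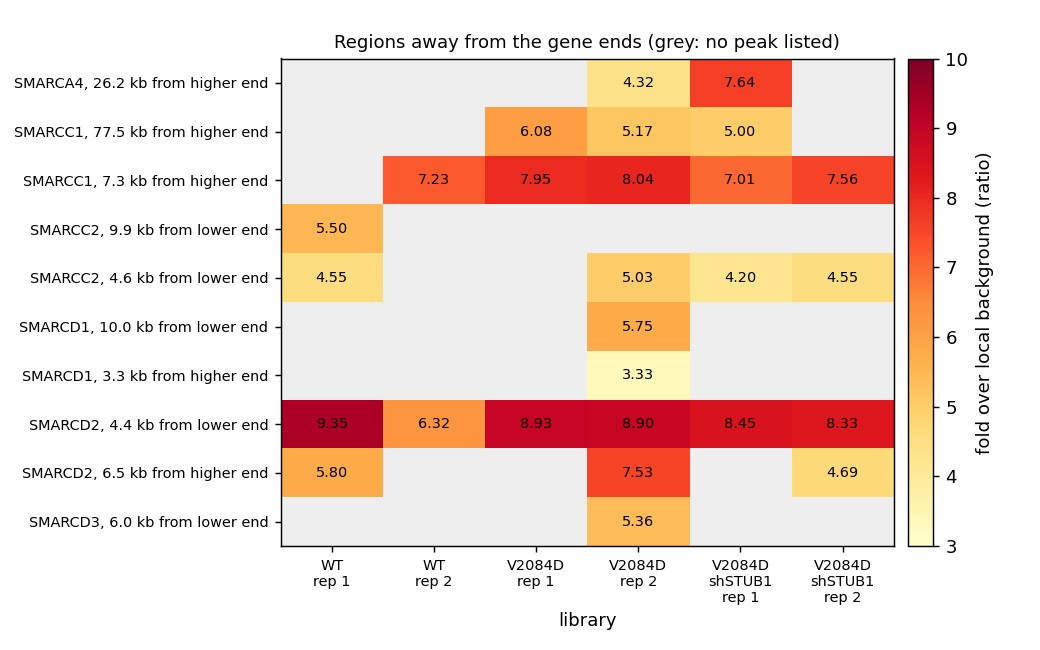
Deposited fold over local background (colour and number, a ratio) in the 10 regions away from gene ends (rows, named by gene and distance of the nearest summit) in each library (columns), with grey where no peak was listed. The row at the lower end of SMARCD2 is filled in all 6 columns, and the row of SMARCC1 outside the gene in 5.

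Set against all peaks of the same list, 16 of the 36 gene-end peaks and 20 of the 30 others stood above the list's median −log10 q. The gene-end folds ran from 3.45 to 7.61 with a median of 5.25, and the median elsewhere was 6.20. Many of the peaks elsewhere lay within 1000 bp of an end of a neighbouring gene. Among them are those at FTSJ3 and PSMC5, which reached percentile 98.9. The contrast is therefore not one of gene ends against sites far from any gene. In V2084D replicate 1 all 3 gene-end peaks, those of SMARCC2, SMARCD2 and ACTL6A, stood at percentiles 19.0 to 29.4, while its 3 other peaks stood at 67.0 to 98.9.

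**Figure D5:**
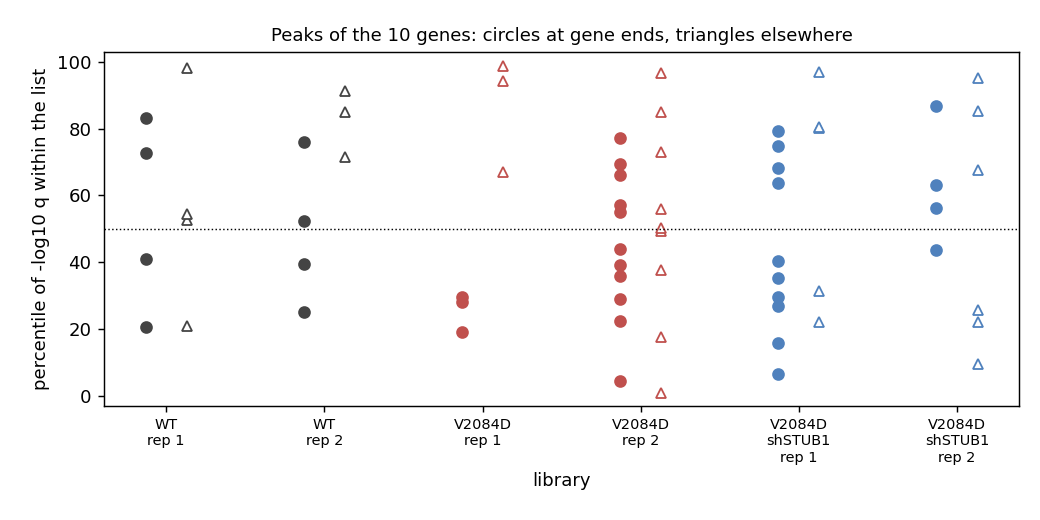
Percentile of each peak's −log10 q within its own list (vertical axis) by library (horizontal axis), circles for gene-end peaks and triangles for peaks elsewhere in the 10 genes or within 10 kb, with a dotted line at 50. The circles of V2084D replicate 1 all sit below 30, and each library has at least 1 triangle above 90.

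The comparison of WT with V2084D asks what the missense form changes. On average 4 ± 0 subunit genes had a gene-end peak in WT and 6 ± 4.24 in V2084D (SD, n = 2 each), a difference within the spread of the V2084D libraries (two-sided exact permutation p = 1; the smallest that 2 against 2 libraries can give is 0.333). Both V2084D and neither WT library had a gene-end peak at 2 of the 10 genes, SMARCC2 and SMARCD2, where 5.07% of protein-coding genes did. The reverse was found for 0 of 10, with 0.0501% of all genes. These counts changed with list length. With every list reduced to its 7234 strongest summits, the V2084D-only count was 0 (1.97% of protein-coding genes) and the WT-only count was 3, SMARCA2, SMARCC1 and ACTL6A (1.74%). Without V2084D replicate 2 the V2084D mean was 1 gene below WT.

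For V2084D against V2084D shSTUB1, the question is the effect of STUB1 knockdown beside V2084D. The mean was 6 ± 4.24 in V2084D and 6 ± 2.83 in V2084D shSTUB1 (SD, n = 2 each; exact permutation p = 1), and no subunit gene was marked in both libraries of 1 group and neither of the other, in either direction. Over all protein-coding genes those shares were 0.656% for V2084D alone and 0.365% for V2084D shSTUB1 alone. Leaving out V2084D replicate 1 gave a difference of −3 and leaving out V2084D replicate 2 gave 3, so its direction rests on which V2084D library is used.

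WT and V2084D shSTUB1 differ in both the ARID1A form and the knockdown. Their means were 4 ± 0 and 6 ± 2.83 (SD, n = 2 each; exact permutation p = 1). SMARCD2 was the 1 of 10 genes marked in both libraries of the V2084D shSTUB1 group and neither of WT (7.07% of protein-coding genes), and 0 of 10 had the reverse (0.135%). At equal list length SMARCD2 kept this pattern and SMARCB1 also had it, where 1.75% of protein-coding genes did. SMARCD2 kept it with a −log10 q of at least 5 as well (6.11%). The reverse pattern was found for SMARCA2 under the same settings (1.75% and 0.17% of protein-coding genes). Peaks away from gene ends numbered 3.5 ± 0.707 in WT, 6 ± 4.24 in V2084D and 5.5 ± 0.707 in V2084D shSTUB1, with an exact permutation p of 0.333 for WT against V2084D shSTUB1 and of 1 for the other pairs. The comparisons with WT share the WT libraries, so the SMARCD2 result in them is not 2 independent results.

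The rest of the complex was described by 19 further subunit genes. Each WT library marked 5 of the 19, the V2084D libraries 7 and 9, and those with STUB1 knockdown 10 and 8. These are 26.3% in both WT libraries, where 32.3% and 24.2% of protein-coding genes were marked, 36.8% and 47.4% in V2084D against 31.1% and 54.7%, and 52.6% and 42.1% under knockdown against 48.1% and 40.6%. DPF2, BICRAL and SS18 had a peak in all 6 libraries, the pattern of ACTL6A. The genes named next were chosen after their values were seen. BICRA, SS18L1 and BCL7B had a peak in 5 libraries. ARID1B, ARID2, BRD7, BRD9, PHF10, DPF1, BCL7A and BCL7C had none in any library, 8 of 19, whereas 0 of the 10 core and catalytic genes and 41.8% of protein-coding genes had none. ACTL6B, the paralog of ACTL6A known from neurons, and ACTB, the actin subunit gene, had a peak in V2084D replicate 2 and V2084D shSTUB1 replicate 1. No gene of the 19 had a peak in both libraries of 1 group and neither of another, in any of the 6 directions.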

How the data were processed

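ATAC-seq was run on 6 Huh7 libraries, grouped by title. Tools named per the submitters' processing notes are Bowtie2, Trimmomatic, Picard, SAMtools, deepTools, bedtools and MACS2, with build hg38. For versions, settings and any cut-site shift, values were not given in the sources used here. Per library, the authors deposited 1 narrowPeak list, so peaks were called per library. The deposited fold is a ratio of the summit to local background, the deposited −log10 p and −log10 q are the caller's, and the deposited score is the whole part of 10 times −log10 q.

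Chromosomes 1 to 22 and X were kept. Gene bounds came from RefSeq GRCh38.p14, without exons. A peak counted when it overlapped a window by 1 bp, and several summits of 1 peak were represented by that of highest −log10 q. Reads and background were recovered by assuming fold = (reads + 1)/(background + 1) and a Poisson p, which gave whole reads within 0.001 in −log10 p for 99.99% to 100% of summits per list; the lowest background per list was taken as proportional to depth. Overlap and recovery were checked on simulated data. Group means were compared by exact permutation (scipy 1.17.1), and no call across genes was tested. All 10 members, genes sharing their ends and other subunits with the same 6-library pattern were named. The members and lists were chosen with earlier results of these data known. Also tried were a stricter −log10 q of 5 or more, equal list lengths, windows of 500 and 2000 bp, summits inside the window, flanks of 5 kb and none, each library left out, pairing by replicate number and, added after seeing the data, peaks merged across libraries.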

Additional observations from a re-analysis of the deposited data

How the results depend on the processing

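The libraries share only replicate numbers. With the number as a replicate block, the mean differences at gene ends were 2 (V2084D minus WT), 0 (V2084D shSTUB1 minus V2084D) and 2 (V2084D shSTUB1 minus WT), each with an exact sign-flip p of 1, where 2 pairs can give no less than 0.5. The paired differences were −1 and 5, 5 and −5, and 4 and 0, so the first and second changed sign between the pairs. Away from gene ends they were −1 and 6, 2 and −3, and 1 and 3 (p = 1, 1 and 0.5, exact). Of the recomputed group results, 118 kept their direction (differences) or stayed within 1.5 times (counts), 31 moved and 7 reversed, and the cause of the others was not tested beyond what fewer peaks or fewer libraries imply. With a −log10 q of at least 5, genes marked in all 6 libraries fell to 0. V2084D-only against WT also fell to 0, where 3.44% of protein-coding genes had that pattern. WT-only against V2084D shSTUB1 was 1, SMARCA2, where 0.17% had it. V2084D minus WT was 1 and V2084D shSTUB1 minus V2084D was 0.5. Away from gene ends V2084D shSTUB1 minus V2084D was −1 and V2084D shSTUB1 minus WT was 1. With lists of 7234 summits, 0 genes were marked in all 6. WT-only and V2084D-only were 3 and 0 (1.74% and 1.97% of protein-coding genes). WT-only and shSTUB1-only were 1 and 2 (1.75% each). The mean differences were −2 (V2084D minus WT), 1.5 (V2084D shSTUB1 minus V2084D) and −0.5 (V2084D shSTUB1 minus WT). Away from gene ends these differences were −0.5, 0.5 and 0 there. With a window of 500 bp, 0 genes were marked in all 6, V2084D-only was 1, V2084D minus WT was 1 and V2084D shSTUB1 minus V2084D was 1. The V2084D-only gene left was SMARCD2, since the SMARCC2 peak of V2084D replicate 1 fell outside that window. The share of all protein-coding genes was not computed for the windows of 500 and 2000 bp, the summit rule, prior merging or left-out libraries. Nor was it computed for genes marked in all 6 under any alternative. Those counts are therefore not read against other genes. Away from gene ends V2084D minus WT, 2.5 with the 10 kb flank, was 1.5 with a flank of 5 kb and 1.5 within gene bodies, V2084D shSTUB1 minus V2084D was 0 and −0.5, and V2084D shSTUB1 minus WT, 2 with the 10 kb flank, was 1.5 and 1. Leaving out 1 library at a time, genes marked in all others ranged from 1 to 2, WT-only and V2084D-only from 0 to 2 and 2 to 4, V2084D-only and shSTUB1-only against each other from 0 to 2 each, and WT-only and shSTUB1-only from 0 to 1 and 1 to 3. The mean differences then ranged from −1 to 5 (V2084D minus WT), −3 to 3 (V2084D shSTUB1 minus V2084D) and 0 to 4 (V2084D shSTUB1 minus WT), and away from gene ends from −0.5 to 5.5, −3.5 to 2.5 and 1.5 to 2.5. The window of 2000 bp, the summit rule and prior merging left every group count within 1.5 times, and the first and last added WT replicate 2 to the libraries of SMARCB1. Depth limits all of this, since member summits held 5 to 28 reads.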
